A study of Homo sapiens with 10 samples.

Results

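The genes described here are 33 members of the Fanconi anemia, homologous recombination and translesion synthesis systems, which deal with DNA that is cross-linked or blocked at the replication fork. The rule is a list of gene symbols that uses no measured value, although the list was drawn up with earlier results of these data known, and all 33 were found among the 58037 gene identifiers of the RNA tables. The 33 comprise 8 genes of the Fanconi core complex, 3 genes of its anchor and ubiquitin-conjugating enzyme, the FANCI-FANCD2 pair, 4 nuclease genes, 5 genes of the BRCA group, 6 further recombination genes (RAD51B, RAD51C, RAD51D, XRCC2, XRCC3 and RAD54L), and 5 translesion synthesis genes. All 33 passed the filter on low counts, among 16406 genes tested.

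The samples came from A549, a human lung adenocarcinoma cell line, and from A549/DDP, a subline of it resistant to cisplatin (DDP). Each line was measured by RNA-seq of the m6A input (2 libraries per line) and by m6A-seq, in which RNA fragments are pulled down with an antibody to N6-methyladenosine and regions over-represented against the input are called as peaks (2 peak lists per line). Both lines were grown in the same medium at 10 passages or fewer, and the labels name no drug in these cultures. Each group is 1 cell line, how the resistant line was derived is not given in the sources used here, and nothing states that replicates were separate cultures, so p-values measure the spread between these libraries only.

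Cisplatin joins neighbouring bases within a DNA strand and, less often, bases of opposite strands. At an interstrand cross-link the Fanconi core complex attaches ubiquitin to the FANCI-FANCD2 pair, nucleases cut around the lesion, a translesion polymerase copies across the unhooked base, and the broken strand is rebuilt by homologous recombination. Many of these genes are expressed mainly in S and G2 phase. The comparison asked whether their RNA, and the m6A calls on it, differed between the resistant and the parental line.

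The 4 input libraries held 29225501 to 35286514 estimated counts, and the members had 42 to 5579 counts each in a library. A second pair of libraries carrying the A549 input labels held 855034 and 982036 counts, of which 75.2% and 73.9% were mitochondrial, against 0.036% to 0.055% in the 4, and it was kept out of the main comparison. KRT8, an epithelial keratin, stood at 2028 to 9891 TPM (transcripts scaled to a common total, per length) and EPCAM, another epithelial marker, at 2.45 to 6.95 TPM. Epithelial markers differed between the lines in both directions: of 6, KRT8, KRT18 and CDH1 were called higher in A549/DDP (log2 fold changes of 1.57, 1.18 and 2.26) and KRT7 lower (-1.66), while KRT19 went from 33.3 and 64.0 TPM in A549 to 9.24 and 0 in A549/DDP and was not called. Of 5 lung lineage markers, SFTPA1 and SFTPC were listed at 0 in all 4 libraries and 4 of the 5 stayed under 1 TPM throughout, as did all 4 endothelial markers. The summed TPM of the 5 immune markers was 1.77 to 7.85 and that of the 5 fibroblast markers 3.48 to 21.9.

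In the main comparison few differences of these genes between the lines passed the test. Of the 33 members, 1 passed an adjusted p of 0.05 in edgeR's quasi-likelihood test (3.03%), where 14.9% of all tested genes did. That member was REV3L, the catalytic subunit of DNA polymerase zeta, which was lower in A549/DDP. In such bulk samples, fewer cells that express a gene and less of its RNA per cell cannot be told apart. In A549/DDP 0 members were called higher, against a background of 6.85% of tested genes in that direction, and 8.0% of tested genes were called lower. At an unadjusted p under 0.05 there were 8 members, 4 higher and 4 lower, or 24.2% against 32.7% of all genes. The median log2 fold change of the members was -0.13, against -0.0016 over all genes, and its median size was 0.449 against 0.759. The estimate was positive for 13 members and negative for 20. A change of at least 2-fold (1 on the log2 scale) was estimated for 6 members, where 39.2% of all genes reached it.

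The 95% intervals were wide for most members. The 95% interval lay within a 2-fold change in either direction for 5 members (FANCC, FANCI, FAN1, RAD51D and REV1), so for the other 28 a difference of 2-fold or more was not excluded at this depth and replication. Other fits called 4 members under DESeq2 (background 25.8%), 6 without a count filter (17.6%), 4 with at least 10 counts in every library (28.1%), 5 with a replicate block (21.6%) and 0 with limma on TPM (9.69% at a pseudocount of 1, with 5 members at an unadjusted p under 0.05). Leaving out A549 replicate 1 left 3 (17.2%), A549 replicate 2 left 6 (20.7%), A549/DDP replicate 1 left 0 (11.2%, with 5 at an unadjusted p under 0.05) and A549/DDP replicate 2 left 3 (11.1%). With the second A549 pair in place of the first 9 were called (27.2%), and with both pairs 0 (4.1%, again with 5 at an unadjusted p under 0.05). Apart from DESeq2 and limma, these fits used edgeR. As a share of the 33, the count without a count filter lay near its background. Fewer calls than the background were thus not seen in every fit. The count with the second A549 pair also lay near its background but cannot decide this. There the 33 members summed to only 49 and 102 counts, and 7 were at 0 in both libraries.

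In 19 members the values of the lines did not overlap, 8 higher and 11 lower in A549/DDP, while 62.4% of all tested genes did not overlap (29.7% higher and 32.7% lower). In 25 of the 33 members the value was higher in A549 replicate 2 than in replicate 1, with a median log2 difference of 0.344, against 46.7% of all genes with a median of -0.034. In A549/DDP 18 members were higher in replicate 2, against 46.6% of all genes.

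**Figure D1:**
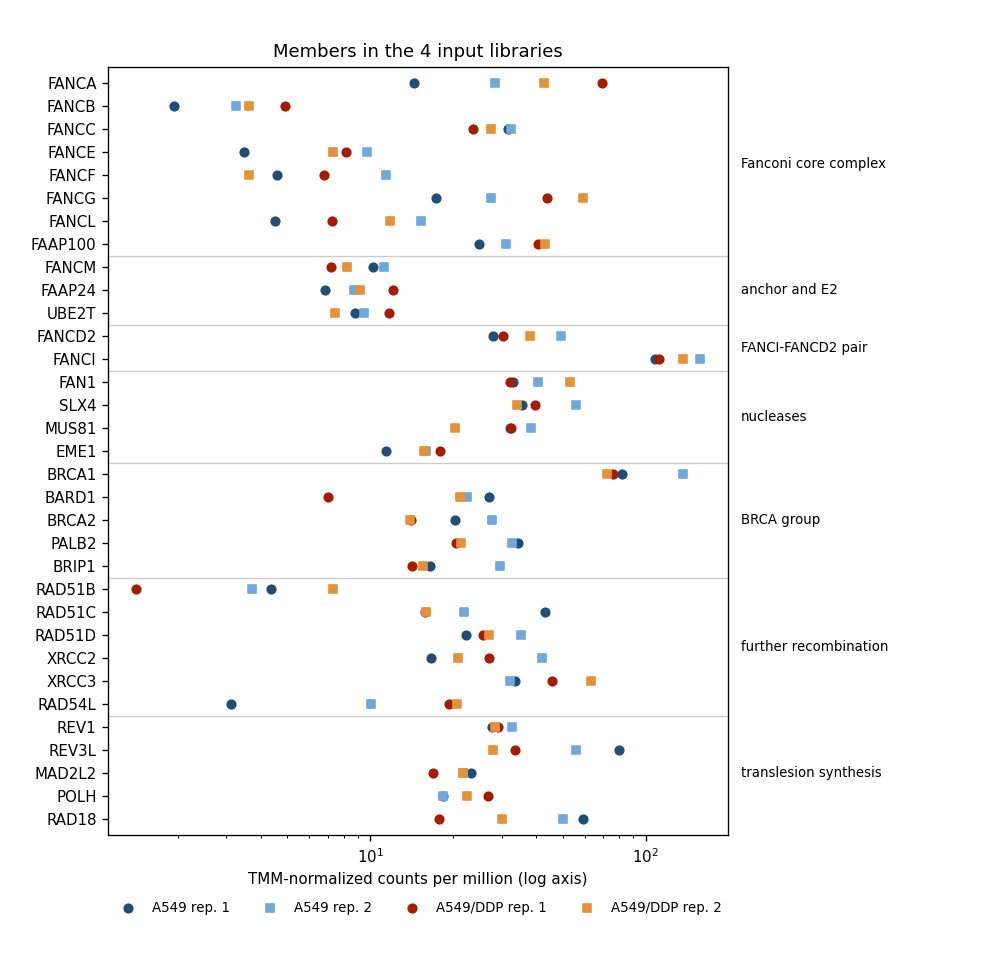
CPM, normalized by the trimmed mean of M values, for the 33 members (rows, by role) on a log axis, with 1 point for each of the 4 input libraries. REV3L and RAD18 have both A549 points to the right of both A549/DDP points, and FANCA, FANCG and RAD54L the reverse. They are among 19 rows in which the points of the lines do not overlap, and the other rows are mixed.

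The translesion synthesis genes held the called member. REV3L had 79.7 and 55.9 CPM (counts scaled to the library's normalized total) in A549 and 33.6 and 28.0 in A549/DDP. Both resistant libraries lay below both parental ones. The log2 fold change was -1.14 (SE 0.268, 95% interval -1.79 to -0.49), with an adjusted p of 0.0406 in edgeR. On the per-length scale REV3L stood at 24.1 and 35.1 TPM in A549 and at 4.89 and 10.3 TPM in A549/DDP. The call was lost without A549 replicate 1 (log2 fold change -0.87, adjusted p 0.080), without A549/DDP replicate 1 (-1.30, adjusted p 0.0638) and without A549/DDP replicate 2 (-1.02, adjusted p 0.122). Over 13 other fits it passed in 6, with adjusted p-values from 0.00033 to 0.493, and with the second A549 pair, where the median of all genes was 0.80, the estimate was 0.89.

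RAD18, the ubiquitin ligase that marks PCNA at stalled forks so that translesion polymerases can bind, gave 59.3 and 50.2 CPM in A549 and 17.7 and 30.1 in A549/DDP. Again the lines did not overlap. Its log2 fold change of -1.19 (SE 0.323) had an adjusted p of 0.0586 in edgeR and so missed the threshold. It passed under 7 of 13 other fits, DESeq2 among them, with adjusted p-values from 0.000952 to 0.157. The other 3 genes of the group differed less. REV1, the scaffold of the translesion polymerases, had an estimate of -0.07 with an interval from -0.72 to 0.57. MAD2L2 (REV7), the partner of REV3L in polymerase zeta, had an estimate of -0.22, and POLH, the polymerase that copies past ultraviolet and cisplatin intrastrand lesions, one of 0.42, with adjusted p-values of 0.716 and 0.416.

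In the Fanconi core complex, the multi-subunit ubiquitin ligase, 5 of 8 estimates were positive and 0 passed the test. FANCA, a subunit that pairs with FANCG, had 14.5 and 28.4 CPM in A549 and 69.3 and 42.8 in A549/DDP. The resistant libraries were both above the parental ones, but replicates differed within each line. The log2 fold change of 1.39 (SE 0.414) had an adjusted p of 0.0759. FANCG, which binds FANCA directly, had 17.3 and 27.5 CPM in A549 and 43.7 and 59.3 in A549/DDP, also without overlap. Its log2 fold change was 1.20 (SE 0.330) with an adjusted p of 0.0610. Under 13 other fits the adjusted p of FANCA ran from 0.000131 to 0.205 and passed in 8, and that of FANCG ran from 0.0019 to 0.174 and passed in 6, but neither passed with limma or with both A549 pairs. The passes of both genes include the fit with the second A549 pair, where FANCA had 1 and 1 counts and FANCG 0 and 1. FAAP100, a subunit that holds FANCB and FANCL together, had an estimate of 0.58, and FANCL, the subunit with the ligase activity, one of -0.06 with an interval from -1.76 to 1.65.

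FANCF, FANCB and FANCE, all core complex subunits, had the lowest levels per length of the 33. FANCF stood at 1.60 and 4.55 TPM in A549 and at 2.52 and 1.36 TPM in A549/DDP. FANCB stood at 1.92 and 6.40 TPM in A549 and at 6.18 and 2.19 TPM in A549/DDP. FANCE stood at 2.07 and 6.59 TPM in A549 and at 5.16 and 4.68 TPM in A549/DDP. In all 3 the spread between replicates of A549 was at least as wide as the distance between the lines, and the means over the 4 libraries (2.51, 4.17 and 4.62 TPM) did not separate these neighbours. At the other end, RAD51C, FANCI and BRCA1 had means of 64.8, 60.1 and 51.3 TPM and overlapped one another from library to library.

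For the steps after the core complex no member was called. FANCM, the DNA translocase that anchors the complex, had an estimate of -0.47, its partner FAAP24 one of 0.45, and UBE2T, the conjugating enzyme that hands ubiquitin to FANCI and FANCD2, one of 0.07. FANCI had 108 and 157 CPM in A549 and 112 and 137 in A549/DDP, with ranges that overlapped. At 62.5 and 85.3 TPM in A549 and 39.2 and 53.6 TPM in A549/DDP it had the second highest level per length of the members. FANCD2, its partner, had an estimate of -0.17. Among the nucleases, the estimates for FAN1, the Fanconi-associated nuclease (0.22), SLX4, the nuclease scaffold (-0.30), MUS81 (-0.41) and EME1, the partner of MUS81 (0.29), lay between -0.41 and 0.29, with adjusted p-values of 0.457 to 0.714.

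All 5 genes of the BRCA group had negative estimates in the main edgeR fit, and none was called there. They lay between -0.81 and -0.56 on the log2 scale, with a median of -0.68 and adjusted p-values of 0.141 to 0.385. BRCA1, the ubiquitin ligase and recombination organiser, had 82.0 and 136 CPM in A549 and 76.1 and 72.5 in A549/DDP. Both A549/DDP values lay under both A549 values, and the A549 replicates were farther apart than A549 replicate 1 was from A549/DDP. On the per-length scale BRCA1 stood at 40.8 and 82.0 TPM in A549 and at 35.7 and 46.9 TPM in A549/DDP, where the lines overlapped. BRIP1 also had a lower TPM mean in A549/DDP, while BARD1, BRCA2 and PALB2 had higher ones, against the direction of their counts. PALB2, the bridge between BRCA1 and BRCA2, had 34.3 and 32.6 CPM in A549 and 20.4 and 21.4 in A549/DDP, with replicates close together in both lines and an adjusted p of 0.141. BARD1, the partner of BRCA1, differed between the A549/DDP replicates (7.02 and 21.2 CPM), so that its estimate of -0.81 had an interval from -2.15 to 0.54. BRCA2, a recombination mediator, had an estimate of -0.78, and BRIP1, the BRCA1-bound helicase, one of -0.63. Single libraries moved these values: BRCA1 ran from -0.89 without A549 replicate 1 (adjusted p 0.00205, called) to -0.16 without A549 replicate 2, and BARD1 from -1.82 without A549/DDP replicate 2 (adjusted p 0.0383, called) to -0.24 without A549/DDP replicate 1. BRIP1 ran from -1.01 to -0.16 under the same kind of check and was not called.

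The further recombination genes, RAD51B, RAD51C, RAD51D, XRCC2 and XRCC3 with the DNA motor RAD54L, were split. Of these 6, 3 had positive and 3 negative estimates and 0 were called in the main edgeR fit. RAD54L had 3.13 and 10.0 CPM in A549 and 19.4 and 20.7 in A549/DDP. That was the largest estimate of the 33, a log2 fold change of 1.61 (SE 0.615), and its adjusted p was 0.132. XRCC3 had 33.4 and 32.2 CPM in A549 and 45.7 and 63.5 in A549/DDP, with an estimate of 0.74 (adjusted p 0.109). RAD51C had 43.2 and 21.9 CPM in A549 and 15.9 and 16.0 in A549/DDP, with an estimate of -1.03 (adjusted p 0.136). Its A549 replicates were farther apart than A549 replicate 2 was from A549/DDP. Leaving out 1 library moved RAD54L between 0.98 and 2.66 and RAD51C between -1.46 and -0.48. Over 13 other fits RAD54L was called in 4 (adjusted p from 0.00494 to 0.337) and RAD51C in 3 (from 0.000251 to 0.714). The calls of both genes include the fit with the second A549 pair, where RAD54L had 0 and 0 counts and RAD51C 11 and 13. RAD51C also had the highest level per length of the members, with 105 and 65.2 TPM in A549 and 36.1 and 52.9 TPM in A549/DDP. RAD51B, RAD51D and XRCC2 had estimates of 0.11, -0.13 and -0.30.

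**Figure D2:**
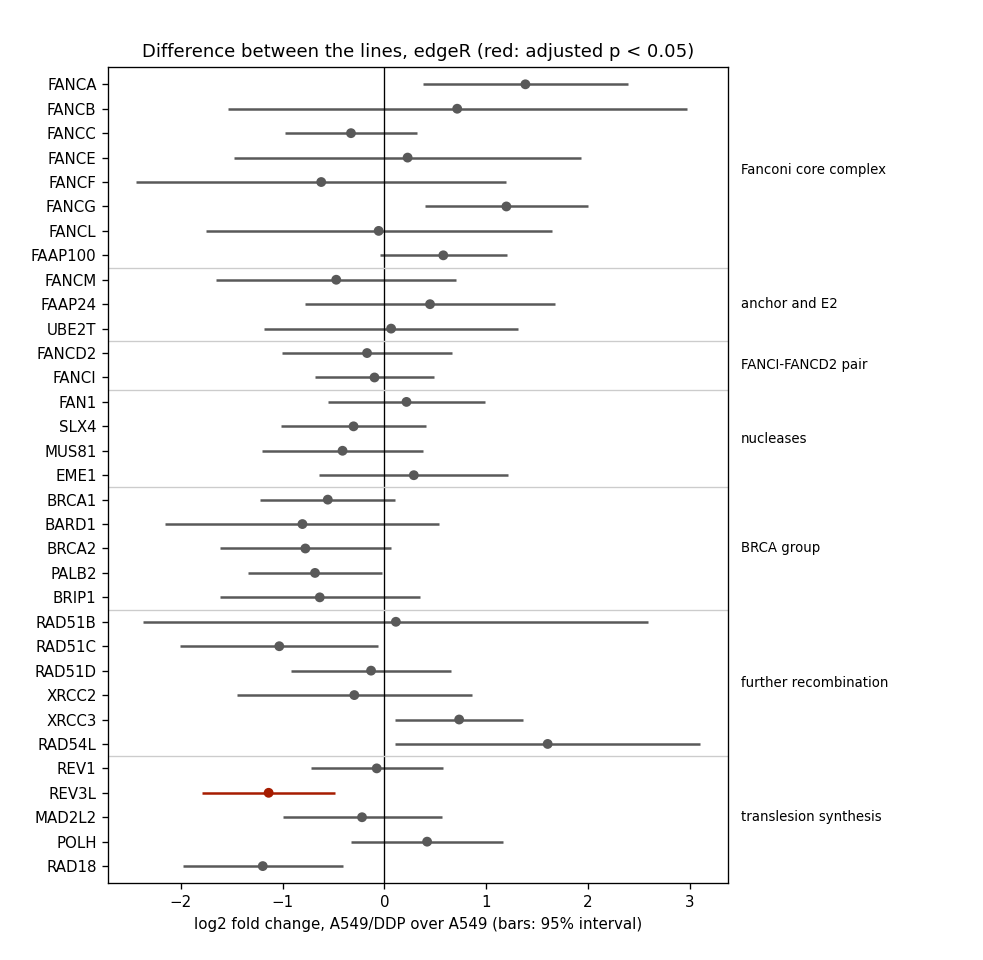
The log2 fold change of each member (A549/DDP over A549, horizontal axis) from edgeR, with its 95% interval as a bar and members grouped by role. REV3L, at -1.14, is the member called at an adjusted p of 0.05, and all 5 BRCA group points lie left of 0.

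The start sites of the genes with the largest estimates are shown with letters known from cell cycle promoters, since many genes of this kind are cell cycle regulated. The windows hold 250 bases before and 50 after each start, from RefSeq on GRCh38.p14, and 32 of the 33 members had an entry. They were searched on both strands for the E2F-type letters TTCCCGC, then TTCGCGC, then TTGCCGC and lastly TTGGCGC, which factors that drive S phase genes are known to bind, and for the CHR letters TTTGAA, known from late cell cycle genes. Capitals mark an E2F-type match on either strand, and each sequence is written 5′ to 3′ along its gene.
REV3L, chr6:111483662-111483961, minus strand: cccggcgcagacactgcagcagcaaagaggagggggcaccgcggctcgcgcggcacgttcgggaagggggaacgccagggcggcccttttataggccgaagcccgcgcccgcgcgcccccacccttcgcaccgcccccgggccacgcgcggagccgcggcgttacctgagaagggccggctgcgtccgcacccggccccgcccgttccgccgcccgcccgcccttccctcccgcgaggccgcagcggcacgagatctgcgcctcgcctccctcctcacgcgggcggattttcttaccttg
REV3L, a downstream start, chr6:111483169-111483468, minus strand: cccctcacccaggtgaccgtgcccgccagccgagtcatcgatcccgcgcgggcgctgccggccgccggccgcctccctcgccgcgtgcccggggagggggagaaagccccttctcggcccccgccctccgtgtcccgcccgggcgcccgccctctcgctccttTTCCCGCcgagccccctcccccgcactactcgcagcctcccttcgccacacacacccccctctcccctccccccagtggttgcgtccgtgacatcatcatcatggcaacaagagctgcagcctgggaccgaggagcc
RAD18, chr3:8963423-8963722, minus strand: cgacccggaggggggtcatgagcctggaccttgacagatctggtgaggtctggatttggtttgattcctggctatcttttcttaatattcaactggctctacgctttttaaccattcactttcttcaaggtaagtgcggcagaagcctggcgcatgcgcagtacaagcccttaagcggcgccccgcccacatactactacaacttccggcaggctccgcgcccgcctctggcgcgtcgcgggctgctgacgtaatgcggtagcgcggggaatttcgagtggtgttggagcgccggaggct
FANCA, chr16:89816598-89816897, minus strand: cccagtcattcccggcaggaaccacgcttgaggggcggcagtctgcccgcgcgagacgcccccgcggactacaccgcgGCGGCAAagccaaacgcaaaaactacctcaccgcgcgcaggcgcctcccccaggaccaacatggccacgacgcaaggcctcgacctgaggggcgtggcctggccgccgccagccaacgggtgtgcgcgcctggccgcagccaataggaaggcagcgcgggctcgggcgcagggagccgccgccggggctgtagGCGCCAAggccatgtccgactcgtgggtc
FANCG, chr9:35079893-35080192, minus strand: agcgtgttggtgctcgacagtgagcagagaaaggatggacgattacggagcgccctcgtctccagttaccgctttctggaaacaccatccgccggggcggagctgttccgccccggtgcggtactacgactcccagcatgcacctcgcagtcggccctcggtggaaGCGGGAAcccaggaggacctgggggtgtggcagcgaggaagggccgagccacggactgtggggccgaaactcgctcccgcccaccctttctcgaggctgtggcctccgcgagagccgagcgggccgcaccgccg
RAD54L, chr1:46247438-46247737, plus strand: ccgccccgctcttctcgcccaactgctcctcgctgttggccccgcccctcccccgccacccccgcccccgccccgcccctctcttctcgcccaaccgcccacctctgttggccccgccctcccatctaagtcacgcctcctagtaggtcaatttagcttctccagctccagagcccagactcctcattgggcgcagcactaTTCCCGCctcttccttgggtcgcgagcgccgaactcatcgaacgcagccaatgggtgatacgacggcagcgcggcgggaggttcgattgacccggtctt

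FANCA held 2 E2F-type matches, FANCG and RAD54L held 1 each, and REV3L held 1 at its downstream start and 0 at the other, while RAD18 held 0. Over the members, the first listed window held such letters in 15 of 32 (46.9%), against 13% of all genes with a window and 20.1% of those tested here. The CHR letters stood in 4 of 32 members (12.5%), against 15.5% of all genes with a window and 9.86% of the tested genes. A match describes these letters only, and their absence from a window says nothing about the factor.

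Calls in the main edgeR fit were also few among other DNA repair genes, against the background of 6.85% higher and 8.0% lower. These genes were not counted in the other fits. Of 97 further repair genes (14 other Fanconi and cross-link genes, 32 of recombination, 18 of translesion synthesis, 15 of the checkpoint and 18 of end joining), all tested, 1 rose and 3 fell. PCNA, the sliding clamp on which translesion polymerases act, rose from 121 and 116 CPM in A549 to 378 and 405 in A549/DDP, a log2 fold change of 1.72 with an adjusted p of 0.00353. POLK, a translesion polymerase, fell from 93.3 and 55.9 to 25.3 and 13.2 CPM, with a log2 fold change of -1.95 and an adjusted p of 0.0299. ERCC4 (XPF), the nuclease that SLX4 carries, fell from 40.6 and 37.9 to 14.2 and 10.1 CPM, with a log2 fold change of -1.69 and an adjusted p of 0.0213. RIF1, which acts with 53BP1 to limit end resection, had a log2 fold change of -0.99 and an adjusted p of 0.0187. So calls in these lists fell on a clamp, a polymerase, a nuclease and an end-protection factor. The other estimates among the 3 largest rises and the 3 largest falls were not called, with adjusted p-values of 0.115 to 0.689. SWSAP1 had 0.760 and 0 CPM in A549 and 1.21 and 1.32 in A549/DDP (estimate 1.73), and SHLD1 had 1.40 and 1.47 against 3.58 and 4.93 (1.57). SHLD3 had 1.85 and 2.40 CPM against 0.0337 and 0.487 (-3.00), and DCLRE1C had 7.48 and 16.9 against 3.61 and 3.35 (-1.81). SWSAP1, SHLD1 and SHLD3 stood at 4.93 CPM or less in every library.

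More of the proliferation genes were called in the main edgeR fit, in both directions. Of 24, 7 were called higher (MCM2, MCM5, MCM7, CDC6, CDT1, RRM2 and CCNE1) and 5 lower (MKI67, TOP2A, BUB1, AURKA and AURKB), with a median log2 fold change of 0.51. CCNE1, the cyclin of S phase entry, had 11.6 and 9.56 CPM in A549 and 36.5 and 36.6 in A549/DDP, with an adjusted p of 0.0164. MCM4, of the replicative helicase, had 67.1 and 188 CPM in A549 and 375 and 410 in A549/DDP, an estimate of 1.62 that was not called (adjusted p 0.0638). TOP2A, the topoisomerase of late S phase and mitosis, went from 983 and 1149 CPM to 259 and 292 and fell by 1.95 on the log2 scale (adjusted p 0.00314). BUB1, of the mitotic checkpoint, went from 143 and 142 CPM to 43.3 and 62.8 and fell by 1.43 (adjusted p 0.0146). Those called higher are known for replication licensing and S phase, and of those called lower BUB1, AURKA and AURKB act in mitosis. The summed level of the 24 was 3482 and 4289 CPM in A549 and 3397 and 3657 in A549/DDP, and that of the 33 members 888, 1118, 890 and 952 in the same order. The part of proliferation in the values of the members was not tested.

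The scale of the values mattered for several members. In 8 of 33 the TPM mean was higher in A549/DDP while the counts gave a negative estimate (FANCC, FANCL, FANCD2, BARD1, BRCA2, PALB2, RAD51D and REV1). TPM divides by an effective length that was estimated in each library from its mix of transcripts. The ratio of the longest to the shortest effective length had a median of 1.75 over the members and 1.36 over all tested genes, and it was above 1.5 in 20 members, against 40.8% of all genes. BRCA2 had effective lengths of 8189 and 8613 bases in A549 and 3234 and 3294 in A549/DDP. BARD1 had 3507 and 2575 bases in A549 and 967 and 1443 in A549/DDP, and PALB2 had 3420 and 3714 against 1584 and 2438. In these 3 genes of the BRCA group the length was shorter in both resistant libraries than in both parental ones. FANCD2 went the same way, with 2944 and 2302 bases in A549 and 1429 and 1387 in A549/DDP. In all, 8 members were shorter in both A549/DDP libraries by any amount, against 17.1% of tested genes, and 4 were longer, against 14.6%. With the longest of the 4 more than 1.5 times the shortest, the counts were 7 shorter (background 8.91%) and 1 longer (background 7.0%). REV3L varied within each line, with 4795 and 2622 bases in A549 and 10582 and 4220 in A549/DDP. The median member stood at 12.7 and 16.1 TPM in A549 and at 17.8 and 18.1 TPM in A549/DDP.

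**Figure D3:**
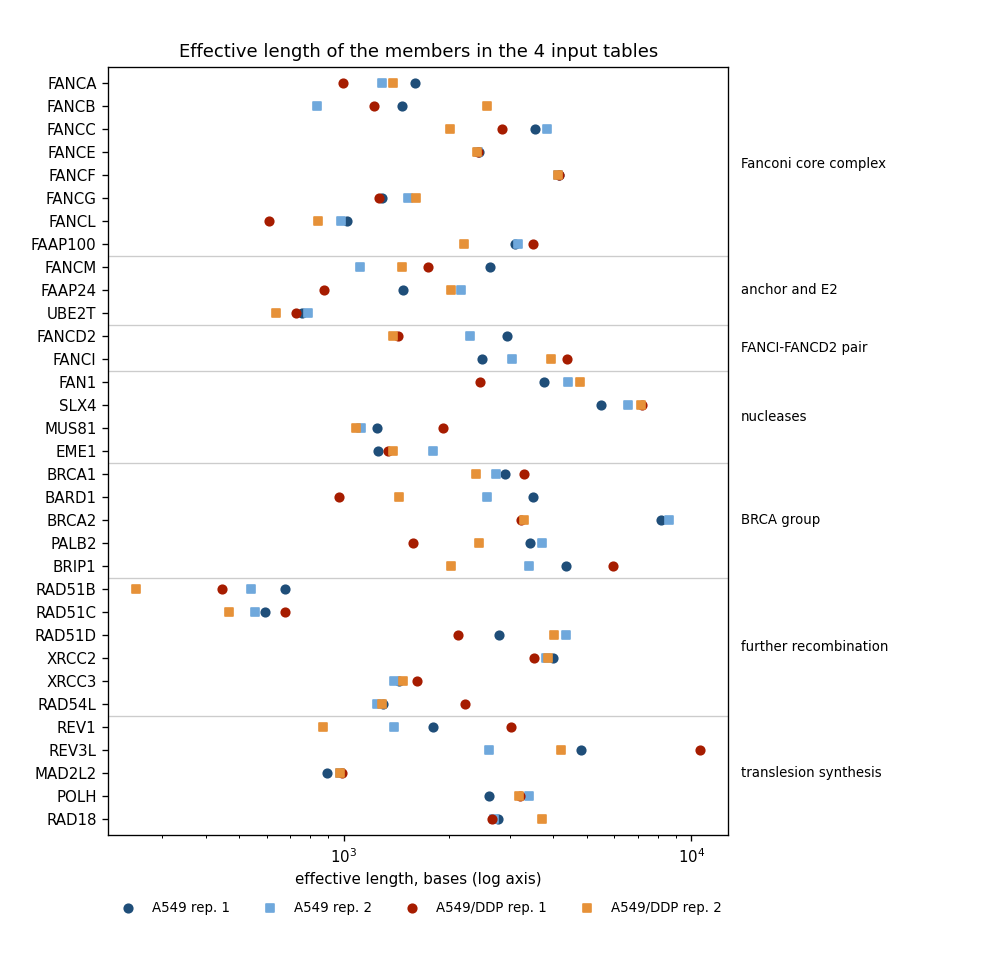
Effective length in bases (log axis) of the 33 members in the 4 input tables, by role, with 1 point per library. BRCA2, BARD1, PALB2 and FANCD2 have both A549/DDP points left of both A549 points, and REV3L spreads over 2622 to 10582 bases.

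In the m6A-seq lists the members carried 210 peaks, 93 and 36 in the A549 lists and 62 and 19 in the A549/DDP lists. A peak was present in 21 and 8 members in A549 and in 12 and 6 in A549/DDP. Over all tested genes the share with a peak was 43.8% and 30.6% in A549 and 40.7% and 22.2% in A549/DDP, while the members gave 63.6% and 24.2% and then 36.4% and 18.2%. The members thus stood above the background in A549 replicate 1 and below it in the other 3 lists. The difference between replicates of a line was larger than that between the lines, so these counts give no difference between the lines beyond the spread of replicates.

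Pattern by pattern, 6 members had peaks in both A549 lists (18.2%, background 27.1%) and 6 in both A549/DDP lists (background 19.5%). BRCA1, PALB2 and XRCC2 had peaks in all 4 lists (9.09%, background 13.9%). No member had peaks in both lists of 1 line and in neither of the other, which 4.63% of tested genes did for A549 and 1.98% for A549/DDP. In 10 members (30.3%, background 7.6%) peaks stood in the list of A549 replicate 1 alone: FANCA, FANCC, FANCG, FANCI, MUS81, BARD1, BRIP1, RAD51C, XRCC3 and POLH. Without that list, 19 members had no peak instead of 9.

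BRCA1 had 7 and 5 peaks in the A549 lists and 12 and 7 in the A549/DDP lists, PALB2 had 3 and 5 against 3 and 2, and XRCC2 had 4 and 3 against 7 and 3. SLX4 had 8 and 10 peaks in the A549 lists and 11 and 0 in the A549/DDP lists, and FAN1 (6, 2, 6 and 0) and FAAP100 (3, 3, 4 and 0) shared that pattern. FANCL, FAAP24 and UBE2T lacked peaks in A549 replicate 2 only. REV3L, the called member, had 7 peaks in A549 replicate 2 and 0 in the other 3 lists, and REV1 had 1 peak there alone, a pattern that 1.42% of tested genes had. EME1 had 4 peaks in the first A549/DDP list alone (background 6.64%), and FANCE and MAD2L2 had peaks in replicate 1 of both lines and in neither replicate 2 (background 5.63%). No peak was listed in any of the 4 for FANCB, FANCF, FANCM, FANCD2, BRCA2, RAD51B, RAD51D, RAD54L and RAD18, 9 members (27.3%) against 42.9% of tested genes.

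In all, 24 members had a peak somewhere (72.7%, background 57.1%), 23 in at least 1 A549 list (background 47.3%) and 12 in at least 1 A549/DDP list (background 43.4%). Members with a peak had more reads in the inputs. The median of the mean CPM, a count of reads that is not per length, was 28.0 over the 24 members with a peak and 13.3 over the 9 without, and the highest of the 9 was RAD18 at 39.3. The part of read depth in the peak calls was not tested.

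Peaks of different lists that shared bases on the same strand were merged, which gave 118 regions with a median of 200 bases in their blocks. A merged region need not hold a base common to all its peaks. Of these, 5 were in all 4 lists, 15 in both A549 lists and 12 in both A549/DDP lists, and 60 were in A549 replicate 1 alone. The 5 common regions (hg38 coordinates) all lay in genes of the minus strand. BRCA1 held 2 of them, chr17:43092246-43092894 and chr17:43093392-43094738, each in 1 block without a gap and together near 61% of the way along the gene from its start (61.7% and 60.5%). The RefSeq span of BRCA1 used for this begins at its most upstream start. PALB2 held another 2, chr16:23626373-23630342 and chr16:23635384-23637898, with up to 3 and 2 blocks. XRCC2 held the last, chr7:152646215-152647948, a block of 1734 bases at 92.6% of the gene's span. These regions were in every list, but the p-values of their peaks differed widely, from 6.6e-09 to 0.0016 in BRCA1 and from 4.7e-08 to 0.0017 in XRCC2.

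In both A549/DDP lists and neither A549 list were 3 regions, chr2:58163496-58194253 in FANCL and chr17:43071167-43074508 and chr17:43076574-43082546 in BRCA1. In the last of these the peaks of the lists met at 1 base, and with an overlap of 50% of the shorter peak required, 2 regions had this pattern. Both genes had other regions called in A549. Regions called in both A549 lists and neither A549/DDP list numbered 0, but 2 with the same overlap of 50% required. The 7 REV3L peaks of A549 replicate 2 lay within chr6:111367642-111376101 and every peak carried a p of 0.00017, so they are not separate pieces of evidence. Other genes also had peaks that shared a p within a list. All 12 BRCA1 peaks of A549/DDP replicate 1 carried 6.6e-09, so numbers of peaks per gene do not count separate evidence.

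Along the genes, 34 of 118 regions had their midpoint in the last 10% of the RefSeq span and 14 in the first 10%, and 115 lay inside the span. The 3 outside it were upstream of FANCC. Taken list by list, the peaks in the last 10% made up 34.4% and 25.0% of member peaks in A549 and 32.3% and 26.3% in A549/DDP, against 33.1%, 35.6%, 35.1% and 35.1% of all peaks in the same lists. In the first 10% they made up 13.3%, 2.78%, 6.45% and 0% against 8.88% to 10.7%. None of the 118 regions shared bases with a peak of another gene. Exon, intron and untranslated positions were not assigned.

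**Figure D4:**
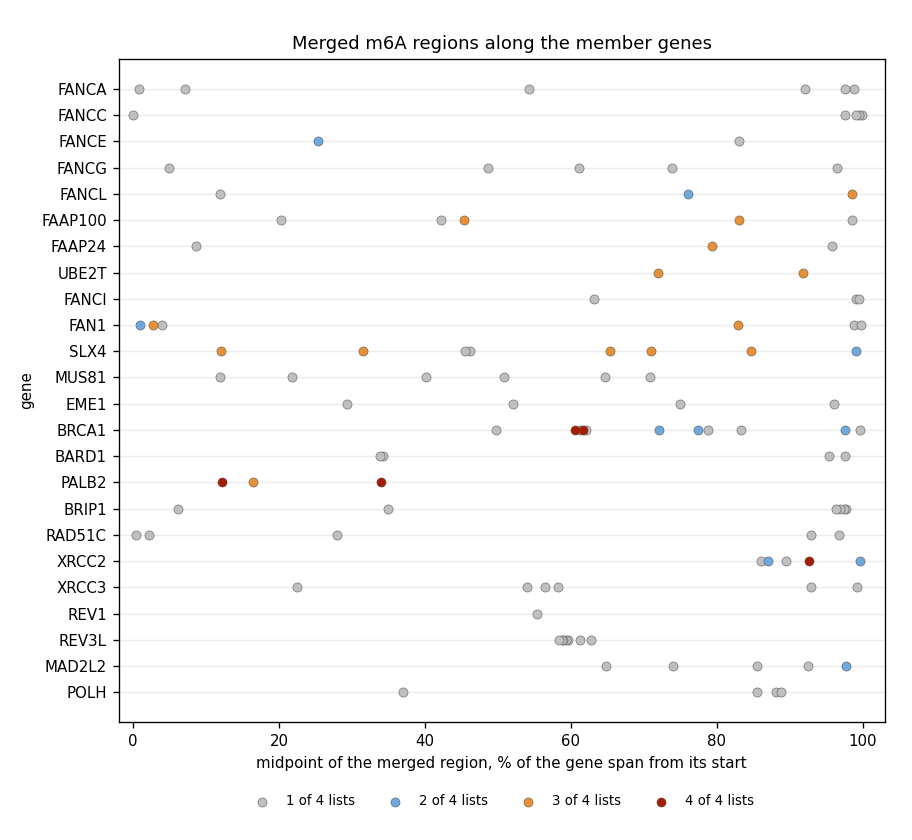
Midpoints of the merged m6A regions that lie inside the gene span, for the 24 members with a peak, as a percentage of the RefSeq span from the gene's start (introns included). Red points, called in all 4 lists, are in BRCA1, PALB2 and XRCC2, and grey points, called in 1 list, fill most other rows.

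At 4 genes a peak reached the start window: RAD51C, FAN1, FANCC and MUS81. The longest stretch was in RAD51C, from A549 replicate 1, at chr17:58692623-58692651 on the plus strand, the last 29 bases of the window. It is printed to show the transcribed letters under a peak at the 5′ end.
RAD51C, start stretch: gggttagcaggtgagcctgcgatgcgcgg
Neither this stretch nor those of the other 3 genes, of 8 to 13 bases, held the letters GGAC, the core of the sequence in which m6A is usually found. Only the part of each peak inside the window was read, and the RAD51C peak was 200 bases long. Stretches this short would seldom hold the letters, so their absence says nothing about the peaks.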

How the data were processed

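Input RNA-seq of A549 and A549/DDP (2 libraries each) and 4 m6A-seq peak lists were analysed. The submitters' processing notes name STAR, RSEM and bedtools on hg38, without versions. The deposited gene tables hold expected counts (rounded here to whole numbers), TPM and FPKM as estimated by the authors. Libraries were strand-specific, and whether the counting used strand is not given in the sources used here. The deposited peak lists hold blocks and a p-value per peak (at most 0.030), given by the authors. Their caller and whether the p-value was adjusted are not given in the sources used here, and no signal was tested. Replicate numbers in the names of the A549 m6A-seq lists were exchanged against the labels, which were followed.

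Counts were normalized by the trimmed mean of M values and tested with edgeR 4.0.16 (filterByExpr, quasi-likelihood, Benjamini-Hochberg over 16406 genes). The fit used the 4 input libraries without a replicate term. Fold changes are A549/DDP over A549, and values are listed as replicate 1, then 2. Normalization factors were 0.933 to 1.03, and the common biological coefficient of variation was 0.656. Same-numbered libraries had a correlation of deviations of 0.0259, and the labels state no shared culture. Of the 58037 identifiers, 56993 had a symbol. Effective lengths were read from the same tables. Alternatives used DESeq2 1.42.0, limma 3.58.1 on log2(TPM + 1) or log2(TPM + 0.1) with a mean of at least 1 TPM, upper-quartile scaling, other count filters, a replicate block, left-out libraries, and the second A549 pair. Peaks were merged by any shared base on the same strand, and shares with a peak are over 16389 distinct genes. R 4.3.3 and Python 3.11.15 were used. The edgeR fit was tested on simulated counts and the merging of peaks on made-up peaks, and the other procedures were not tested in this way.

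The members, lists and tests were chosen with earlier results of these data known. All 33 members were accounted for. Full values were given for called members and for the 3 highest and 3 lowest TPM, and for the 3 largest rises and falls among other repair genes and the 2 largest among proliferation genes. RAD18, FANCA, FANCG, RAD54L, XRCC3, RAD51C, PALB2, BARD1, ERCC4, RIF1 and the genes of the length and peak examples were named after their values were seen. Start windows were searched, and printed for the genes with the largest estimates, after the values were seen.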

Additional observations from a re-analysis of the deposited data

Results flagged for a closer look

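Counts of 2 members were above 3 in both libraries of the second A549 input pair, which the main comparison does not use. RAD51C had 11 and 13 counts there, and RAD18 had 5 and 10. The 33 members summed to 49 and 102 counts in these 2 libraries, and 7 members were at 0 in both. A count of 0 allows up to 3 counts, and these limits cover counting error only.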

How the results depend on the processing

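Members called numbered 4 under DESeq2 (2 higher, 2 lower), 6 without a filter beyond 1 count (3 and 3), 4 with at least 10 counts in every library (2 and 2), 0 under limma with either pseudocount (background 9.69% and 7.64%), 9 with the second A549 pair alone (7 and 2, where the median of all genes was 0.80) and 0 with both pairs (background 4.1%). The backgrounds of the first 3 were 25.8%, 17.6% and 28.1%. With a replicate block 5 were called (3 higher, 2 lower; 21.6% of all genes), and the numbers share no stated pairing. Upper-quartile scaling kept 1 (background 15.5%). Leaving out 1 library gave 0 to 6 members (0 to 3 higher, 0 to 3 lower): 3 without A549 replicate 1, 6 without A549 replicate 2, 0 without A549/DDP replicate 1 and 3 without A549/DDP replicate 2. The members' median was 0.20 with limma at a pseudocount of 1 and 0.21 at 0.1, 0.89 with the second pair, and -0.36 to 0.17 leaving out 1 library. FANCL (0.15) and RAD51B (-0.31) changed sign with the block. Leaving out 1 library turned the sign of 12 members, whose values ran from -0.34 to 1.13 for FANCE, -1.15 to 0.17 for FANCF, -0.70 to 1.06 for FANCL, -0.32 to 0.35 for UBE2T, -0.54 to 0.28 for FANCD2, -0.36 to 0.18 for FANCI, -0.20 to 0.51 for FAN1, -0.60 to 0.040 for SLX4, -1.52 to 0.84 for RAD51B, -0.44 to 0.22 for RAD51D, -0.83 to 0.50 for XRCC2 and -0.20 to 0.033 for REV1. Of 165 member values under other settings, 148 kept direction and side of the threshold, 15 passed it newly and 2 reversed. These 165 come from DESeq2, upper-quartile scaling, the other count filters and the replicate block, without limma or the second A549 pair. Outside them, REV3L lost its call under limma and stood at 0.89 with the second A549 pair. Of 132 leaving out a library, 102 kept both, 3 lost the call, 11 gained it and 16 reversed. With peaks at a p of 1e-05 or lower, members in both A549 lists numbered 0, in both A549/DDP lists 1, in all lists 0, in no list 15 and in A549/DDP alone 1, and regions numbered 0, 1, 0 and 1 in both A549, both A549/DDP, all and A549/DDP alone. With an overlap of 50% of the shorter peak, 2 regions were in both A549 lists alone. Leaving out 1 list gave 6 to 21 members in both A549, 6 to 12 in both A549/DDP, 3 to 6 in all, 9 to 19 in none, 0 to 10 in A549 alone and 0 to 3 in A549/DDP alone, and 15 to 86, 12 to 49, 6 to 15, 0 to 60 and 3 to 23 regions in both A549, both A549/DDP, all, A549 alone and A549/DDP alone. A line with 1 remaining list counts as both. The cause of these changes was not tested, apart from the fewer libraries or peaks that the settings leave. With 2 libraries a line, a lone library is assumed to vary like the other line. Members with few reads, such as FANCB and RAD51B, have the widest errors, and peak lists without depth set no limit on a missing peak.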
